A study of Mus musculus with 6 samples.

Results

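The intermediate filament genes of mouse pancreatic stellate cells (PSCs) are described here for 10 genes of the 55421 in the table. They are the simple-epithelium keratins Krt7, Krt8, Krt18, Krt19 and Krt20, the keratin Krt80, and the mesenchymal and neural filament genes Vim, Nes, Gfap and Synm. The members were chosen by name, with the comparison of 1% and 21% O2 in these samples already known for Krt19, so their differences between the oxygen levels are given as a description. Where a member is said to be called, this gives its place in the fit over all genes and is not evidence from a test independent of the choice. PSCs, the fibroblast-like cells from which cancer-associated fibroblasts (CAFs) of the pancreas can arise, were primary cells of C57BL/6 mice. All 6 samples were PSCs cocultured with mT3, a mouse pancreatic ductal adenocarcinoma (PDAC) organoid, with the PSCs in Matrigel in a transwell insert and the organoids in the well beneath. Over 48 h, 3 samples were kept in normoxia (21% O2) and 3 in hypoxia (1% O2), and polyA RNA of the PSCs was sequenced, to compare the fibroblast state under both oxygen levels. PSCs cultured without tumor cells were not analysed here, so every value is that of a cocultured PSC.

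Intermediate filaments are rope-like cytoskeletal polymers whose subunits are made in a cell type-specific way. Keratins form obligate heteropolymers of a type I chain (Krt18, Krt19 and Krt20 among the members) and a type II chain (Krt7, Krt8 and Krt80), with Krt8 and Krt18 the basic pair of simple epithelia and Krt19 and Krt7 typical of pancreatic ducts. Vimentin is the type III filament of mesenchymal cells, nestin and synemin are large type IV subunits that copolymerize with it, and Gfap is the astrocyte filament that quiescent stellate cells can also make.

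The library totals were 24749601 to 31925054 estimated counts, so that 3 counts corresponded to 0.094 to 0.121 CPM (counts scaled to a common library size). Of all genes, 16207 had enough counts to be tested, and edgeR's quasi-likelihood test with a Benjamini-Hochberg adjusted p below 0.05 and a linear fold change beyond 1.5 called 3068 of them higher and 2479 lower in hypoxia. Nothing in the labels says whether the 3 samples of a group came from separate mice or cultures, so the p-values measure the spread between these samples, which may be technical. The labelled cell type was checked against fibroblast and stellate markers. Pdgfra stood at 568 ± 34.4 CPM (SD, n = 3) in normoxia and 999 ± 41.7 in hypoxia, and Col3a1, the most abundant fibroblast marker over the mean of all 6 samples, stood at 11150 and 12740 CPM. The stellate cell marker Lrat had at most 1 count in any sample, and Gfap was near 0. The libraries also held macrophage transcripts. The summed level of 8 macrophage markers was 799 to 1398 CPM in normoxia and 417 to 728 CPM in hypoxia, and 4 of the 8 were called lower, Lyz2, Tyrobp, Adgre1 and Cd68, the last 2 with overlapping samples. Most of the sum was Lyz2 (900 to 413 CPM). Itgam (39.2 to 39.0 CPM), Cd14 (12.8 to 13.5), Csf1r (40.4 to 34.2) and Ptprc (11.1 to 7.32) were not called. In such bulk RNA, fewer cells of a type and less RNA per cell cannot be told apart.

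Of the 10 members, 6 had enough counts to be tested. Krt19, Krt80 and Nes were called higher in hypoxia, Synm was called lower, and Vim and Krt7 were not called. Among all tested genes, 18.9% were called higher and 15.3% were called lower. The samples of both groups did not overlap for 5 of the 6 tested members, 4 with hypoxia above and Synm with hypoxia below, where 68.9% of all tested genes did not overlap. Krt8, Krt18, Krt20 and Gfap did not pass the filter on low counts.

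**Figure D1:**
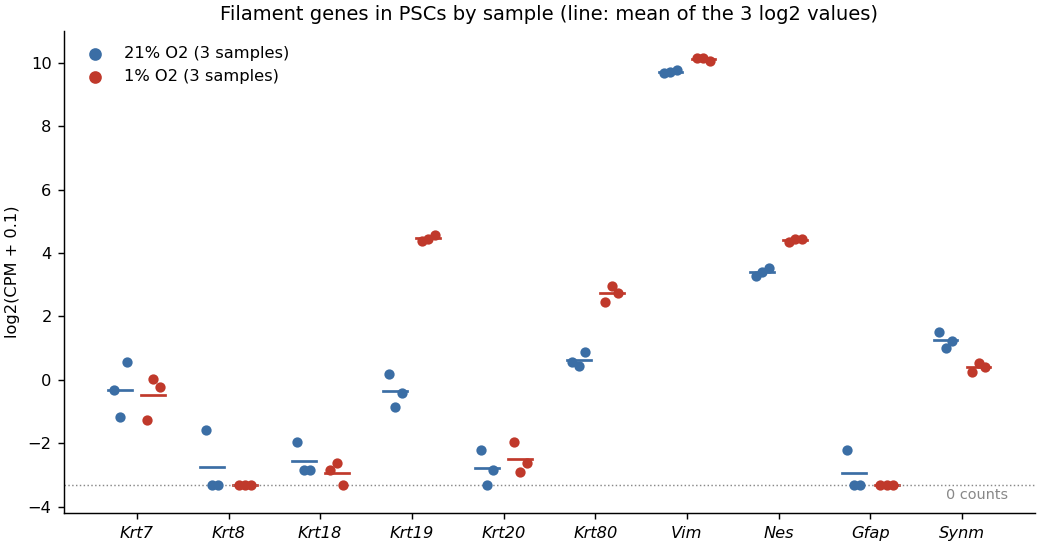
Level of the 10 filament genes in each of the 6 samples, as log2(CPM + 0.1), with 21% O2 in blue, 1% O2 in red and a line at the mean of the 3 log2 values. Krt19 and Krt80 sit apart between the groups, Vim lies far above all others in every sample, and Krt8, Krt18, Krt20 and Gfap stay at or near the dotted line of 0 counts.

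Krt19 (ENSMUSG00000020911, chr11:100140810-100148665, minus strand, GRCm38), the type I keratin that marks pancreatic duct and duct-derived tumor cells, changed most among the members. It had 27, 12 and 16 counts in the normoxia samples and 525, 681 and 760 in the hypoxia samples. All hypoxia samples were far above all normoxia samples, and within hypoxia the values lay close together, at 20.6, 21.7 and 23.9 CPM. The mean rose from 0.715 ± 0.297 CPM to 22.1 ± 1.66 CPM (SD, n = 3), a log2 fold change of 4.94 (SE 0.19), or 30.7-fold. Sorted from the highest, this log2 fold change was number 69 of the 16207 tested genes. None of the 1527 words of 50 bases in its principal transcript, Krt19-201, was shared with another annotated gene, and words of its other exons were not counted.

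No other simple-epithelium keratin was called together with Krt19, and 3 of the 4 were too low to be tested. Krt7, a type II keratin of ducts (ENSMUSG00000023039, chr15:101411043-101430313, plus strand), had 18, 9 and 34 counts in normoxia and 8, 29 and 24 in hypoxia. The groups overlapped, and the log2 fold change was -0.23 (SE 0.52). It was 0.38 without the third normoxia sample and 0.07 without the first hypoxia sample, so that leaving out either library turned its sign. Krt8, the type II keratin of all simple epithelia (ENSMUSG00000049382, chr15:101996698-102004482, minus strand), had 6, 0 and 0 counts in normoxia and 0 in each hypoxia sample. Krt18, its type I partner (ENSMUSG00000023043, chr15:102028180-102032027, plus strand), had 4, 1 and 1 counts in normoxia and 1, 2 and 0 in hypoxia. Krt20, a type I keratin of gut epithelium (ENSMUSG00000035775, chr11:99428403-99438150, minus strand), had 3, 0 and 1 counts against 4, 1 and 2. Together Krt8, Krt18 and Krt20 gave 5, 3 and 2 counts in the hypoxia samples, in which Krt19 alone gave 525 to 760. A difference between the oxygen levels was not detectable at this depth for these 3 genes, and of the words in the principal Krt8 transcript 29.7% were shared with other annotated genes, mostly with its pseudogene Krt8-ps, which was at 0 in all samples.

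Krt80, a type II keratin of epithelia (ENSMUSG00000037185, chr15:101347444-101370162, minus strand), was the other keratin member called higher. Its counts were 36, 33 and 43 in normoxia and 138, 242 and 210 in hypoxia, and the lowest hypoxia sample lay above the highest normoxia sample. The mean went from 1.46 ± 0.254 CPM to 6.58 ± 1.15 CPM, a log2 fold change of 2.17 (SE 0.20) or 4.51-fold. Its exons overlap 263 bp of the antisense gene Gm35853, which had 2 to 3 counts in normoxia and 6 to 7 in hypoxia. Reads of both could not be told apart where the counting ignored strand, a setting not given in the sources used here.

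Per kb of the principal transcript, a scale on which levels can be compared between genes, Krt19 made up 10.6 ± 4.38% of all keratin mRNA in normoxia and 76.1 ± 1.76% in hypoxia (n = 3 each). In the single samples its share was 15.4, 6.95 and 9.29% in normoxia and 76.5, 74.2 and 77.6% in hypoxia. Krt10, a type I keratin of the epidermis, was the leading keratin in normoxia, with 48.4 ± 5.50% of keratin mRNA, and held 8.56 ± 1.22% in hypoxia. The share of Krt80 was 11.1 ± 1.57% and 11.6 ± 1.69%, a difference within the spread of the samples. Summed over each type, type I keratins exceeded type II keratins in every sample, by 3.97, 4.53 and 2.80 times in normoxia and by 7.45, 5.28 and 7.01 times in hypoxia. The higher ratio in hypoxia was that of Krt19 itself, on which the members were chosen. Without Krt19 in the type I sum the ratio went the other way, from 3.26 ± 0.851 in normoxia to 0.803 ± 0.184 in hypoxia. The type II sum in that ratio went from 0.927 to 2.47 CPM per kb, of which Krt80, also a member, held 0.476 and 2.15. The fall in the share of Krt10 includes the rise of Krt19 in the total. Keratins of either type remained a small part of the filament mRNA, at 1.08 ± 0.029% of the cytoplasmic filament total in normoxia and 3.45 ± 0.313% in hypoxia. Over merged exon lengths in place of the principal transcript, keratins made up 2.01 ± 0.071% and 5.87 ± 0.506%, the type I to type II ratio was 6.67 ± 1.76 and 11.5 ± 2.04, and the share of Krt80 was 6.04 ± 0.99% and 6.83 ± 1.07%, whereas that of Krt19 was 10.2 ± 4.18% and 79.1 ± 1.3%. The ratio without Krt19 was then 5.91 ± 1.77 and 1.60 ± 0.361. The sizes of these shares and ratios thus rest on the length used. They were computed after the values of the members had been seen.

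Because mT3 organoids are keratin-positive epithelial cells, other epithelial genes were read in the same samples. Of 21 epithelial and duct markers, 13 had at most 3 counts in every sample, among them Cdh1, Epcam, Elf3, Grhl2, Esrp1 and Cftr. Cdh1, the epithelial cadherin, had 1, 0 and 1 counts in normoxia and 0, 0 and 1 in hypoxia, and Epcam had a single count in the first normoxia sample and 0 in the other 5. Of the 5 markers tested, Sox9 was called higher (29.2 ± 0.170 to 61.2 ± 4.29 CPM, log2 fold change 1.07, SE 0.06, adjusted p = 1.49e-06 by edgeR) and St14 was called lower (1.01 to 0.496 CPM, -1.02, SE 0.39, adjusted p = 0.0443 by edgeR), with overlapping samples for St14. Muc1 (2.57 ± 0.566 to 3.83 ± 0.449 CPM) was not called, nor were Spint1 and Esrp2. Sox9, a transcription factor of duct cells, is also made by mesenchymal cells. The summed level of the 21 markers was 33.4 to 35.1 CPM in normoxia and 64.6 to 72.1 in hypoxia, most of it Sox9. Among all 16207 tested genes, 5658 had all hypoxia samples above all normoxia samples and 5510 had them below. Of the 5 tested markers 3, Sox9, Muc1 and Spint1, had all hypoxia samples above all normoxia samples, and 0 had them below. The same held for Spint2, with 7, 5 and 5 counts in normoxia and 9, 19 and 26 in hypoxia, and for Cldn3, with 0 counts in normoxia and 5, 5 and 3 in hypoxia, both too low to be tested. The markers thus differed among themselves. In the hypoxia samples, in which Krt19 stood at 20.6 to 23.9 CPM, Cdh1, Epcam, Krt8 and Krt18 had at most 2 counts each, and the part of epithelial cells in the Krt19 level was not tested beyond these values.

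Mesothelial cells also make Krt19 together with Krt8 and Krt18, and 11 of their markers were read likewise. Of the 4 tested, Wt1 was called higher (24.3 to 41.2 CPM, log2 fold change 0.76, SE 0.11), while Nkain4 (-2.29, SE 0.52), Rspo1 (-1.46, SE 0.17) and Cldn15 (-0.92, SE 0.15) were called lower. Msln, the gene of mesothelin, had 2, 8 and 8 counts in normoxia and 0, 4 and 3 in hypoxia, and Muc16 was at 0 in every sample. The summed level was 69.5 to 74.8 CPM in normoxia and 60.9 to 68.2 CPM in hypoxia.

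**Figure D2:**
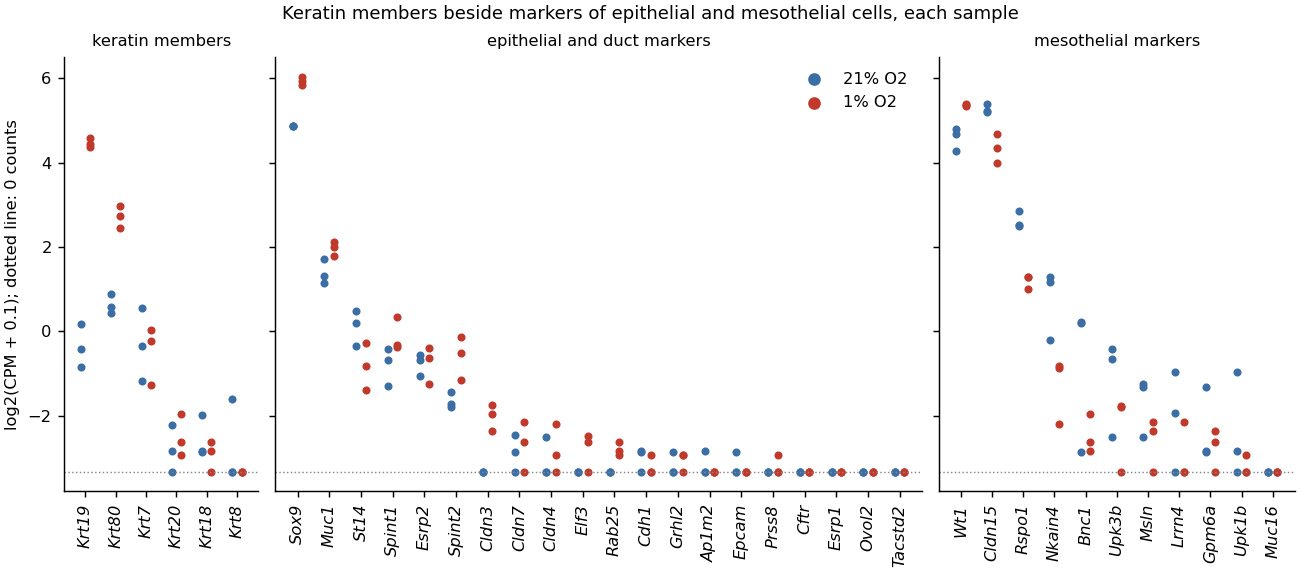
Level of the 6 keratin members and of epithelial, duct and mesothelial markers in each sample, as log2(CPM + 0.1), with 21% O2 in blue and 1% O2 in red. Krt19 and Krt80 lie higher in all 3 hypoxia samples, whereas the epithelial markers from Cldn7 to the right lie near the dotted line of 0 counts in both groups.

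Krt19 lies within the type I keratin cluster of chromosome 11, and the keratins around it had few or no counts. Of the 19 protein-coding genes that start within 200 kb of it, 14 are keratins, none of which passed the filter, and 13 of these had at most 3 counts in every sample. The remaining keratin, Krt36, had 5, 8 and 2 counts in normoxia and 0 in each hypoxia sample. Its direction was thus opposite to that of Krt19. Over the group totals and with hypoxia set to a floor of 3 counts, Krt36 was 5.76-fold lower. The normoxia total was taken as exact, so this value covers no counting error in it. Eif1, a translation initiation factor 171 kb away and the one gene of this window that was tested, stood at 259 CPM in normoxia and 281 CPM in hypoxia, above Krt19 in both. It had a log2 fold change of 0.12 (SE 0.05, adjusted p = 0.0921 by edgeR) and was not called. Krt80 lies at the edge of the type II keratin cluster of chromosome 15. Of its 15 neighbours 9 are keratins, 8 of which had at most 3 counts in every sample, and the remaining keratin was Krt7. Of the 6 tested neighbours 1 was called, Nr4a1, which was lower. The window was chosen after the values had been seen.

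**Figure D3:**
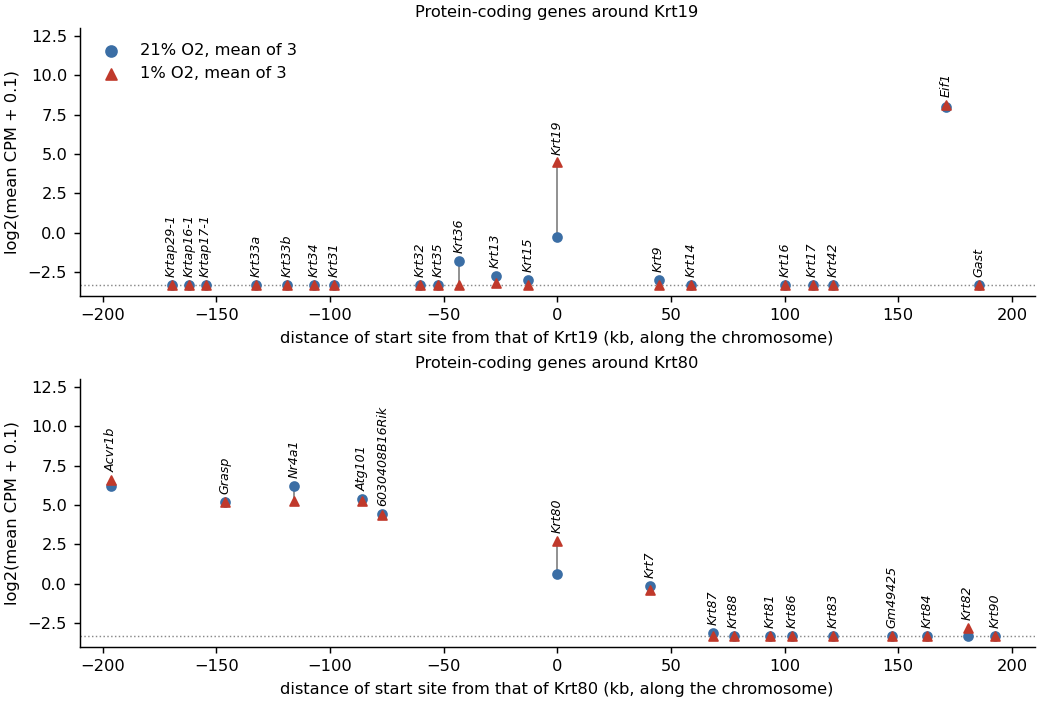
Mean level (log2(CPM + 0.1), n = 3) of the protein-coding genes around Krt19 and Krt80 against the distance of their start sites in kb, with blue circles for 21% O2 and red triangles for 1% O2. Krt19 and Krt80 are higher in hypoxia, Krt7 lies near the normoxia level of Krt80 at both oxygen levels, and the other keratins lie toward the dotted line of 0 counts.

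Vim (ENSMUSG00000026728, chr2:13573927-13582826, plus strand), the mesenchymal filament gene, was the most abundant member throughout. Its levels were 813, 838 and 882 CPM in normoxia and 1133, 1134 and 1073 CPM in hypoxia. The hypoxia samples were all above the normoxia samples, but the difference was small. The mean was 844 ± 34.8 CPM against 1113 ± 35.3 CPM, and the log2 fold change of 0.40 (SE 0.06), or 1.32-fold, did not reach the fold required for a call. Macrophages also make vimentin, and 4 of their 8 markers were called lower in hypoxia and 4 were not called, as given above. Their part in the Vim level was not tested. Vim held 97.0 ± 0.311% of the cytoplasmic filament mRNA per kb in normoxia and 95.1 ± 0.347% in hypoxia.

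Nes (ENSMUSG00000004891, chr3:87971078-87980451, plus strand), the nestin gene of neural progenitors that is also found in activated stellate cells and pericytes, was called higher. It had 247, 276 and 281 counts in normoxia and 516, 675 and 684 in hypoxia, with no overlap. The mean doubled, from 10.5 ± 0.946 CPM to 21.1 ± 0.725 CPM, with a log2 fold change of 1.01 (SE 0.09). Synm (ENSMUSG00000030554, chr7:67730160-67759742, minus strand), whose product synemin links filaments to adhesion sites in muscle, was the 1 member called lower. Its counts were 72, 50 and 55 in normoxia and 28, 42 and 39 in hypoxia, again with no overlap, and its mean fell from 2.3 ± 0.441 to 1.22 ± 0.120 CPM (log2 fold change -0.91, SE 0.22). Synm thus moved opposite to Nes, the other type IV member. Exons of Synm overlap 84 bp of Ttc23 on the opposite strand, which went from 15.5 to 10.4 CPM, and how far its reads entered the Synm counts was not tested. Gfap (ENSMUSG00000020932, chr11:102887336-102900912, minus strand) had 3 counts in the first normoxia sample and 0 in the other 5.

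Promoter windows of 300 bases (250 before and 50 after the start site, RefSeq, GRCm38.p6) were found for 8 of the 10 members, and none for Krt19 and Krt80. Those of the 3 mesenchymal and neural members above are shown, because these genes share filaments and differ in direction. Capitals mark ACGTG and GCGTG on either strand, both forms of the core letters of the hypoxia response element that hypoxia-inducible factors bind.
Nes, chr3:87970843-87971142, plus strand: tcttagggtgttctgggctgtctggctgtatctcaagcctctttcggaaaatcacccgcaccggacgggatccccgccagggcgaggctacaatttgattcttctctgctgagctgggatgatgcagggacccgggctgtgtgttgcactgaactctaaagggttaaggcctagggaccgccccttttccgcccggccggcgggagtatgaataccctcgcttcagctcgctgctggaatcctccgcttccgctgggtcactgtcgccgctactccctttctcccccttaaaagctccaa
Vim, chr2:13574061-13574360, plus strand: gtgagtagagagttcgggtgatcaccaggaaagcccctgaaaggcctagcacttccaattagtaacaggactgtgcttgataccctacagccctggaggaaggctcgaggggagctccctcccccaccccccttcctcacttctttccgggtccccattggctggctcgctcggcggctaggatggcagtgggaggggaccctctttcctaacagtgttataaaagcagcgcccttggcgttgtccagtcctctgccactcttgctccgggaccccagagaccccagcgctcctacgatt
Synm, chr7:67759693-67759992, minus strand: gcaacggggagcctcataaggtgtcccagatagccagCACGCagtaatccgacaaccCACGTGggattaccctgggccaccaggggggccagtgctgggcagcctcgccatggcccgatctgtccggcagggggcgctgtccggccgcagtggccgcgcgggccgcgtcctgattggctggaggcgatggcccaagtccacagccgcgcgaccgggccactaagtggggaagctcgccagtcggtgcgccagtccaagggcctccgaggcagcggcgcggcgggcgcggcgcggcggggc
The windows of Nes and Vim held neither motif. In Synm, which was lower in hypoxia, ACGTG occurred on both strands of 1 palindrome, and GCGTG once on the reverse strand. No other of the 8 windows held ACGTG, and Krt18 held GCGTG. Among 32851 promoter windows of the same length, 19.6% held ACGTG and 32.4% held GCGTG. The AP-1 motif TGANTCA was in 7.81% of the windows and in none of the 8. These matches are of letters and do not show binding.

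Per kb of principal transcript, the members fell in normoxia in the order Vim (385 CPM per kb), Nes (1.71), Krt80 (0.476), Krt19 (0.453), Synm (0.294), Krt7 (0.197), Krt18 (0.054), Krt8 (0.039), Krt20 (0.027) and Gfap (0.0145). Krt80 and Krt19 did not differ beyond their SD of 0.083 and 0.189 CPM per kb, and over the merged exons in place of the principal transcript Krt19 (0.385) and Synm (0.290) stood above Krt80 (0.229), and Vim was at 178 CPM per kb. Krt7, with an SD of 0.129 CPM per kb, could not be set apart from Synm, and the last 4 were at the limit of detection. In hypoxia Krt19 moved to the place after Vim (508 CPM per kb), at 14.0 CPM per kb, followed by Nes (3.44) and Krt80 (2.15). Krt7 (0.162) and Synm (0.156) again lay within their spread, Krt20 (0.044) and Krt18 (0.024) were at the limit, and Krt8 and Gfap were at 0.

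Of the 61 other intermediate filament genes, 11 were tested, 1 of which was called higher and 4 lower, beside 18.9% and 15.3% of all tested genes. Their median log2 fold change was -0.41, beside -0.004 over all tested genes. The gene called higher was Nefm, the medium neurofilament chain, with 13, 7 and 11 counts in normoxia and 34, 31 and 36 in hypoxia (log2 fold change 1.5, SE 0.31, adjusted p = 0.00239 by edgeR). The other type IV neurofilament genes were too low to be tested, but their counts lay on the same side. Nefl had 0 counts in normoxia and 2, 6 and 5 in hypoxia, 3.76-fold higher over the group totals with normoxia set to a floor of 3 counts. Nefh had 0, 1 and 0 counts against 6, 6 and 4, a ratio of 13.9 with a 95% exact counting interval of 2.16 to 583. Ina, which encodes alpha-internexin, had 1, 0 and 1 counts against 5, 11 and 12, a ratio of 12.2 (3.07 to 105). The intervals cover counting error only, and the floor for Nefl covers none in its hypoxia total, which was taken as exact. Exons of Nefl and Nefm overlap by 1108 bp on opposite strands. Ina likewise shares 456 bp with Nt5c2 on the opposite strand, a gene called higher (39.2 to 64.4 CPM), and how far its reads entered the Ina counts was not tested. The 3 untested neurofilament genes were singled out after their values had been seen. The type III filament gene Prph, also untested, had 3, 2 and 4 counts in normoxia and 0, 5 and 2 in hypoxia, and the groups overlapped. Among 10 Schwann and glial markers, Fabp7 was called higher (log2 fold change 1.10) and S100b lower (-1.29), and the summed level of that list was 23.5 to 27.7 CPM in normoxia and 35.2 to 43.8 CPM in hypoxia, whose part in the neurofilament and Nes counts was not tested.

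All 3 lamin genes, which encode the filaments of the nuclear lamina, were called lower. Lmnb1 fell from 20.5 ± 3.06 to 8.40 ± 1.85 CPM (log2 fold change -1.28, SE 0.16, adjusted p = 0.000127 by edgeR). Lmnb2 fell from 22.9 ± 4.23 to 13.3 ± 1.33 CPM (-0.78, SE 0.13, adjusted p = 0.00081 by edgeR). Lmna fell from 364 ± 7.21 to 242 ± 5.68 CPM (-0.59, SE 0.05, adjusted p = 1.37e-05 by edgeR), just past the fold required, and was no longer called without the first normoxia sample or without the second hypoxia sample (-0.58 in each). The fourth gene called lower was Krt23, a type I keratin, with 19, 24 and 18 counts in normoxia and 5, 10 and 13 in hypoxia (-1.32, SE 0.33, adjusted p = 0.00693 by edgeR). Krt19 and Krt23 were therefore called in opposite directions within type I, although Krt23 was not called in DESeq2 with the replicate block.

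Des, the muscle type III filament, went from 16.6 ± 3.05 to 11.4 ± 0.942 CPM with no overlap between the groups (log2 fold change -0.54, SE 0.14, adjusted p = 0.00729 by edgeR) and missed the fold required. Without the first hypoxia sample or without the second normoxia sample Des was called lower, and the number of other filament genes called lower ranged from 3 to 5 when 1 sample was left out. An adjusted p below 0.05 at any fold was reached by 62.7% of all tested genes. Krt10 had a log2 fold change of -0.41 (SE 0.15). Of the other 25 type I keratins 2 were tested, and of the other 22 type II keratins 0 were. Of the 61 genes, 42 had at most 3 counts in every sample and 32 were at 0 in all.

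**Figure D4:**
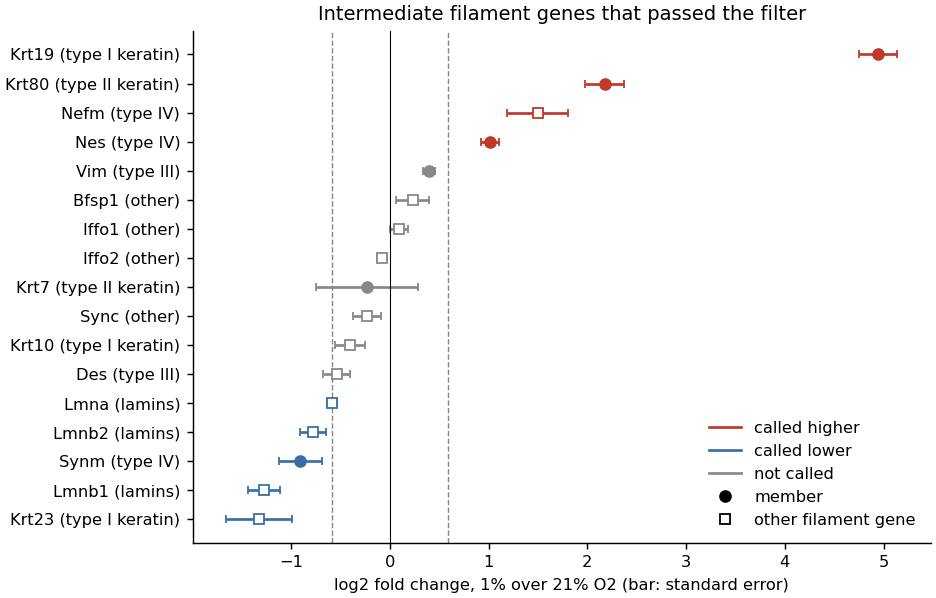
Log2 fold change (1% over 21% O2) with its standard error for the 17 filament genes that passed the filter, with filled circles for members, open squares for the other genes, and dashed lines at a fold of 1.5 in either direction. Krt19 stands at 4.94, and the lamins, Krt23 and Synm lie to the left of the lower dashed line.

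Plakins and desmosome proteins anchor intermediate filaments to membranes and junctions. Of 17 such genes 9 were tested, 4 were called higher and 1 lower, with a median log2 fold change of -0.04. Among all tested genes, 18.9% were called higher and 15.3% lower. Pkp2, a desmosomal plaque protein also present at other junctions, had 44, 47 and 47 counts in normoxia and 293, 385 and 336 in hypoxia (1.79 ± 0.107 to 11.5 ± 0.864 CPM, log2 fold change 2.67, SE 0.13, adjusted p = 4.23e-07 by edgeR). Among the others called higher, Ppl rose by 0.85 (SE 0.23) and Dsc2 by 1.45 (SE 0.37) on the log2 scale, the latter at 6 to 10 counts in normoxia and 18 to 32 in hypoxia. Plec, the plectin gene that is the main cytolinker of vimentin, rose from 228 ± 33.6 to 353 ± 18.6 CPM (0.63, SE 0.10, adjusted p = 0.000562 by edgeR). Plec was no longer called without the second normoxia sample, Ppl without the third hypoxia sample, and Dsc2 in DESeq2 with the replicate block, each of which left 3 genes called higher. Pkp4 was called lower (20.4 to 12.5 CPM, -0.71, SE 0.07). Jup (-0.55, SE 0.10) was not called with all samples, and 2 genes were called lower without the first hypoxia sample or without the third normoxia sample. Dsp, which ties keratins to desmosomes, had 8, 0 and 1 counts against 5, 0 and 4, and Pkp1, Dsg2, Dsg3 and Dsc3 had at most 3 counts in every sample.

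Other cell state markers moved in both directions. As for every list here, the shares over all tested genes were 18.9% called higher and 15.3% called lower. Of 12 fibroblast markers 4 were called higher (Cdh2, Pdpn, Fn1 and Pdgfra, log2 fold changes 1.13, 0.99, 0.90 and 0.82) and 2 lower (Lum -2.17, Thy1 -1.0). Of 7 mesenchymal transcription factors Prrx1 (0.93) and Twist2 (0.73) were called higher and Snai2 (-1.11) lower. Of 9 stellate cell markers other than filaments, 7 were tested, Ncam1 (1.13) was called higher, and Pparg (-2.00) and Ngfr (-1.5) lower. Of 10 smooth muscle and pericyte markers Notch3 (1.24) and Rgs5 (0.84) were called higher and 4 lower, Mcam (-1.84), Myh11 (-1.75), Actg2 (-0.71) and Acta2 (-0.65). These 4 were lower in the same samples as Synm, also a muscle filament gene, and their part in the Synm level was not tested. Of 6 endothelial markers 2 were called higher (Tek 1.16, Vwf 0.79) and 2 lower (Cldn5 -0.81, Kdr -0.76), with overlapping samples for Kdr. Of 9 acinar markers 1 was tested, Cela1 (-0.33, SE 0.11, adjusted p = 0.0275 by edgeR), which missed the fold required.

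The genes most like Krt19 over the 6 samples, by Pearson's r of log2(CPM + 0.5) among 14239 genes with a mean of at least 1 CPM, were Tnfrsf22 (0.9999), Fermt2 (0.9997), Fam13b (0.9996), Atg13 (0.9995) and Gja1 (0.9992). They share the direction, not the size of the change, as Gja1 had a log2 fold change of 2.33 and Atg13 one of 0.44. The 6 points fall into the 2 oxygen groups, and 493 genes had an r above 0.99. Among the members, r with Krt19 was 0.982 for Krt80, 0.976 for Nes, 0.961 for Vim, -0.886 for Synm and -0.114 for Krt7.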

How the data were processed

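Per the labels, PSC RNA was taken from 3 samples at 21% and 3 at 1% O2. The authors trimmed polyA libraries with Cutadapt, mapped them to GRCm38 with STAR 2.6.1b and estimated gene counts with RSEM 1.3.1 (versions also in the submitters' processing notes). The deposited table holds these expected counts for 55426 features, and 0 values had a fraction. The annotation release and strand setting are not given in the sources used here. Of the identifiers, 55240 matched GENCODE M21 and 181 did not, and 5 transgene features were at 0.

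Genes were filtered with filterByExpr, scaled by TMM and fitted in edgeR 4.0.16 (limma 3.58.1, R 4.3.3) with glmQLFit and glmQLFTest, with oxygen as the only term and p-values adjusted by Benjamini-Hochberg over all 16207 tested genes. The standard error was the absolute log2 fold change over the root of its F statistic, and CPM used the TMM-scaled library sizes. The fit was run on simulated counts with the same dispersion for every gene and no replicate structure. That setting was simpler than these data, so it does not measure the error of the calls here. A call required an adjusted p below 0.05 and a fold beyond 1.5, the thresholds of the study's DESeq2 analysis. With 3 against 3 samples an exact two-sided permutation test cannot go below 0.1, so none was used. Replicates of a group differed beyond counting noise. Word sharing between genes was counted in 50-base words of principal transcripts.

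The members and the lists were chosen with earlier results of these data known. Named were all members, each other filament gene called, and from each other list at a mean of at least 1 CPM up to 3 genes called in each direction and the most abundant gene. Some genes that this rule would name are not reported here. Genes named beyond this rule, Dsc2, St14, S100b, Jup, the low-count markers and further called genes, were chosen after their values were seen. Alternatives were DESeq2 1.42.0, its size factors, no filter, other folds, a replicate block and leaving out each sample, and, added after the data were seen, merged exon lengths and type I keratins without Krt19.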

Additional observations from a re-analysis of the deposited data

How the results depend on the processing

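Against 5547 genes called in all, a required fold of 2 left 3156 and no required fold gave 10168, and leaving out each sample in turn gave 5226 to 5662. At a fold of 2, edgeR called 0 members lower (Synm was lost) and 2 other filament genes lower, and 2 plakin or desmosome genes were called higher and 0 lower. With no required fold, 2 of these were called lower, and leaving out 1 sample gave 1 to 2. Without the filter on low counts, 4 other filament genes were called higher. DESeq2 with the replicate block called 2 other filament genes lower, having lost Lmna and Krt23, and did not call the desmosome gene Dsc2. Lmna missed the fold in 4 of 13 settings (-0.58 to -0.61 over all). Krt19 ranged from 4.69 to 5.31 when 1 sample was left out, Krt80 from 2.04 to 2.31, Nes from 0.94 to 1.07 and Synm from -1.03 to -0.75.

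Samples of the same number correlated in their deviations from the group means by 0.223, 0.195 and 0.053 over 16207 genes, the last too weak to pair them, although every sample correlated best with its own number. With the replicate block in edgeR, 5572 genes were called, and the counts for the members and both lists did not change.

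Krt8, Krt18, Krt20 and Gfap had at most 6 counts in any sample, too few to give a direction. With 3 samples per group, oxygen was the one factor compared, and any batch tied to it cannot be told apart from it.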
